A study of Oryzias latipes and Danio rerio with 6 samples.

Results

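The zebrafish Yap1 profile consisted of 7553 regions that favoured the Dam-Yap1 fusion and 8538 regions that favoured the Dam-GFP control. All rows of the Yap1 positive list and of its paired control list were taken, 16091 of the 52712 regions in the 8 deposited lists. The Dam-Yap1 sample came from wild-type zebrafish embryos injected with mRNA for the bacterial adenine methylase Dam fused to zebrafish Yap1. The Dam-GFP sample came from the same kind of embryos injected with mRNA for Dam fused to green fluorescent protein. Genomic DNA was isolated from whole embryos at 80% epiboly, with 40 embryos in each replicate and 3 replicates per sample, per the labels' protocols. The injected mRNA is not restricted to 1 cell type, so the regions are an average over the embryo.

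Yap1 is a transcriptional co-activator at the end of the Hippo pathway, a kinase cascade that holds organ growth in check. When the pathway is off, Yap1 enters the nucleus and binds target genes through partners, chiefly the TEAD factors, since it has no DNA-binding domain of its own. During epiboly the embryonic cell sheet spreads over the yolk while gastrulation proceeds. A Dam fusion leaves methyl marks on the GATC sequences it comes near, and Dam-GFP records where DNA is open to any freely diffusing Dam. A positive region is therefore a stretch with more marks under Dam-Yap1 than under Dam-GFP, and a control region is the opposite.

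Each group was 1 sample, and the lists held no values per replicate. No p-values are given. Intervals are 95% intervals that cover the counting of regions only, and regions of the same sample are not replicates. They treat regions as independently placed, although regions of a list ran together, so intervals of counts and shares are likely too narrow. The depth of sequencing was unknown. The lists gave positions on the GRCz10 assembly, with 7326 positive and 8351 control regions on the 25 assembled chromosomes. A further 226 positive regions lay on 141 unplaced sequences, and 187 control regions lay on 123. No zebrafish genome or annotation of this build was used, so regions are named by position and no gene or sequence is attached to them.

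Positive and control regions lay apart from each other. By the definition above a stretch cannot be in both lists, and none of the 7553 positive regions overlapped a control region. On assembled chromosomes 39 of 7326 positive regions (0.532%, 0.390 to 0.727) had a control region within 1 kb, whereas 903 (12.3%, 11.6 to 13.1) had another positive region that close. Of the 487 pairs of successive positive regions at most 1 kb apart, 250 were exactly 4 bp apart. Of all 7553 positive regions, 4 had a control region exactly 4 bp away. Within 10 kb the shares were 7.96% (7.36 to 8.60) for a control neighbour and 33.3% (32.2 to 34.4) for a positive neighbour. The median distance from a positive region was 28.1 kb to the nearest positive region (26.7 to 29.6) and 78.8 kb to the nearest control region (76.3 to 81.2). From a control region, the nearest positive region lay at a median of 98.5 kb (95.7 to 101.7) and the nearest control region at 25.9 kb (24.2 to 27.4). Read in order along the chromosomes, a positive region was followed by another positive region in 61.9% of cases (60.8 to 63.0). A control region was followed by a positive region in 33.4% (32.4 to 34.4), with 46.7% over all regions. Each kind of region thus ran in stretches of its own kind.

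Yap1 regions covered a wider range of lengths than the control regions. The shortest positive region was 200 bp and the longest 16598 bp, against 223 and 7129 bp in the control list. At the 10th percentile the positive regions measured 361 bp (352 to 368) and the control regions 477 bp (468 to 489). The control regions were also the longer at the 75th percentile, at 1601 bp (1589 to 1641) against 1564 bp (1523 to 1589). At the 90th percentile they measured 2294 bp (2231 to 2303), against 2237 bp (2191 to 2285) for positive regions. At the 95th percentile positive regions measured 2809 bp (2728 to 2889) and control regions 2693 bp (2660 to 2760). The intervals of the lists overlapped at the 90th and at the 95th percentile. The mean was 1178 ± 884 bp in the positive list and 1204 ± 794 bp in the control list (SD over regions). At the median the positive regions were longer by 49.5 bp (15.9 to 80.5), at 957 bp against 907.5 bp. That order did not hold in the higher-scored part of each list, where the medians were 970 bp for positive and 1021 bp for control regions. The positive median was the higher on 18 of 25 chromosomes. It ranged from 858 bp on chromosome 16 to 1066 bp on chromosome 17.

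A few exact lengths recurred many times in the control list, and none did so in the Yap1 list. Lengths held by several regions were common in both, since 48.9% (47.8 to 50.02) of positive and 60.1% (59.1 to 61.2) of control regions had a length held by at least 5 regions of their list. The commonest length among positive regions was 238 bp, held by 18 regions on 13 chromosomes. The commonest among control regions was 809 bp, held by 92 regions spread over all 25 chromosomes and unplaced sequences. Lengths of 2096, 537, 529 and 543 bp followed in the control list with 60, 50, 48 and 37 regions. In the positive list only 5 regions measured 809 bp, 1 measured 2096 bp, 3 measured 537 bp and 12 measured 529 bp. No exact length was held by 20 or more positive regions, whereas 23 lengths were in the control list, together 738 regions (8.64%, 8.07 to 9.26). At 10 or more regions per length the shares were 5.04% (4.57 to 5.56) of the positive and 24.2% (23.3 to 25.1) of the control list. When the recurring lengths of 20 or more regions were left out, both lists had a median of 957 bp. The limit of 20 regions was chosen after the values had been seen. Lists for another fusion, Dam-Taz, were made with the same Dam-GFP sample. Lengths of 20 or more regions covered 2.42% of its positive list, with 610 bp on 87 and 282 bp on 55 regions. They covered 3.17% of its control list, with 809 bp on 64 regions but 2096 bp on only 2.

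**Figure D1:**
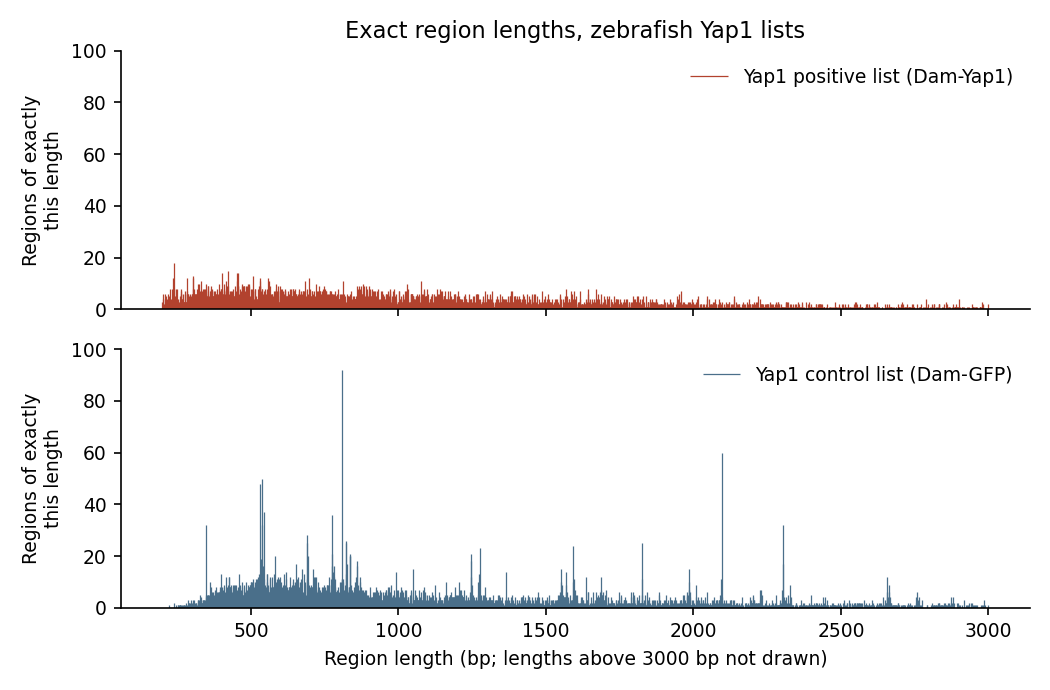
Number of regions (vertical axis) of each exact length in bp (horizontal axis), for the Yap1 positive list above and its Dam-GFP control list below. The positive list stays at or below 18 regions per length, whereas the control list has spikes of 92 regions at 809 bp and 60 at 2096 bp.

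Between neighbouring regions, 4 bp was the commonest exact gap under 5 kb in both lists, and the control list had further sizes that recurred often. A gap was counted as the bases between a region's end and the start of the next region of the same list. Among the 7301 positive gaps on assembled chromosomes, 250 (3.42%, 3.03 to 3.87) were exactly 4 bp long, and 130 of 8326 control gaps were (1.56%, 1.32 to 1.85). The GATC site that the method reads is itself 4 bases long, but the letters in these gaps were not read. No other exact gap under 5 kb occurred more than 6 times in the positive list. In the control list 92 gaps were exactly 18 bp, 70 were 764 bp, 38 were 1820 bp and 33 were 1498 bp. A gap of 18 bp occurred once in the positive list, and also only once in the Taz control list of the same Dam-GFP sample. Gaps of 0.5 to 2.5 kb made up 4.40% (3.95 to 4.89) of positive and 12.0% (11.4 to 12.8) of control gaps. Gaps of 2.5 to 20 kb were the more frequent in the positive list, at 17.97% (17.1 to 18.9) against 11.002% (10.3 to 11.7). Here, too, the classes were drawn after the distributions had been seen.

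**Figure D2:**
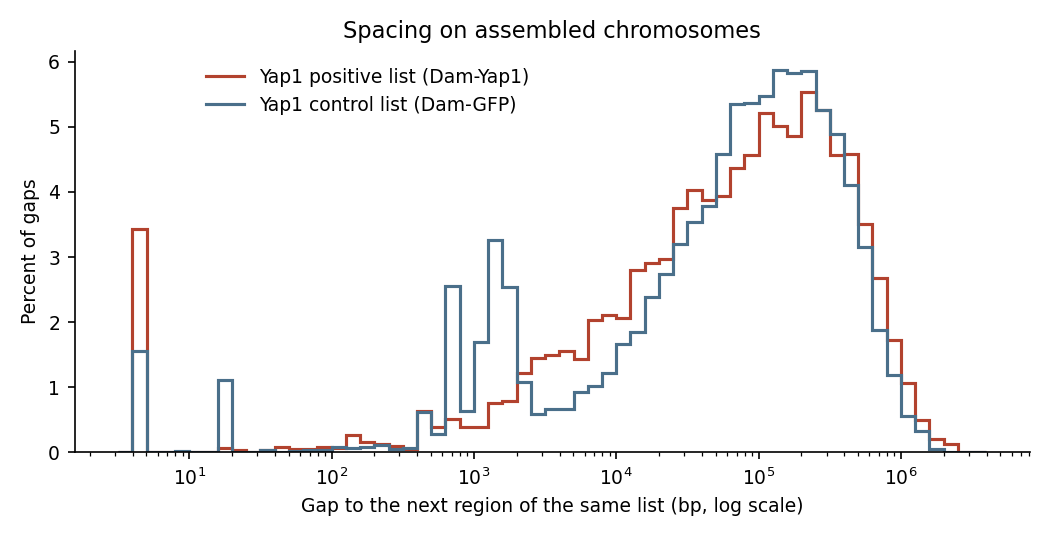
Percent of gaps (vertical axis) by the gap to the next region of the same list in bp (horizontal axis, log scale), on assembled chromosomes, for the Yap1 positive list and its Dam-GFP control list. Both lists have a spike at 4 bp, and the control list alone stands out at 18 bp and between 0.5 and 2.5 kb.

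The median gap of the lists did not differ beyond counting error, whereas the share of short gaps depended on the limit used. The median gap was 77.0 kb (72.3 to 81.4) for positive and 78.9 kb (75.4 to 82.9) for control regions, and the interval of the difference ran from 8.07 kb shorter to 3.78 kb longer in the positive list. The lists differ in size, however, and the mean gap was 182 kb for positive and 159 kb for control regions. Relative to the mean, the median gap was the smaller in the positive list, at 0.424 against 0.496. No interval was computed for these values. The share of gaps of at most 10 kb was 19.9% (19.0 to 20.8) against 21.1% (20.2 to 22.0), and the interval of the difference ran from -2.44 to 0.0925 percentage points. It lay below 0 without chromosome 4, from -3.06 to -0.460 percentage points. At a limit of 5 kb the positive share was the lower, at 14.3% against 17.9%, a difference of -3.63 percentage points (-4.78 to -2.48). Long gaps were longer in the positive list, which also held fewer regions. Its 95th percentile was 702 kb (665 to 736), against 589 kb (568 to 609) in the control list. The longest stretches without a positive region were 3.40 Mb on chromosome 25 (8981048 to 12379541), 3.001 Mb on chromosome 8 (34071335 to 37072761) and 2.49 Mb on chromosome 14 (17487735 to 19973049). These stretches held 16, 35 and 34 control regions. Over all assembled chromosomes control regions averaged 6.23 per Mb, so the first stretch held fewer than that density gives and the others more.

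Most Yap1 regions stood alone, and the clusters that did form could be large. Regions separated by at most 10 kb were joined into clusters, of which 5015 held a single positive region and 5326 a single control region. Clusters of 2 held 19.4% (18.6 to 20.3) of positive and 26.6% (25.7 to 27.6) of control regions. Clusters of 5 or more numbered 50 in the positive list and 19 in the control list, with 4.34% (3.91 to 4.83) and 1.23% (1.02 to 1.49) of the regions. Of these, 48 positive and 18 control clusters lay on assembled chromosomes, with 9 positive clusters and no control cluster on chromosome 4. That chromosome held 638 of the 7326 assembled positive regions and 414 of the 8351 assembled control regions. With 18 control clusters in all, their absence from chromosome 4 says little. Positive regions with a neighbour within 10 kb had a median score of 102 (99 to 105) and those without one 92 (90 to 94). The same held in the control list, at 82 (81 to 83) and 76 (75 to 76).

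The largest Yap1 cluster lay on the unplaced sequence chrUn_KN149688v1 (59293 to 117660), where 25 regions with scores of 57 to 87 spanned 58.4 kb. It was followed by 15 regions on chrUn_KN150342v1 (5401 to 29929), with scores up to 321. On chromosome 17, 12 regions spanned 65.1 kb (23303877 to 23368972) and together measured 44.3 kb. This cluster held the longest region of the list, 16598 bp with a score of 119, and the sixth longest, 7889 bp with a score of 107. On chromosome 4, 12 regions spanned 38.9 kb (42069292 to 42108165) and 10 regions spanned 36.4 kb (59552731 to 59589161), with scores of at most 73 and 83. None of these 5 clusters contained a control region. The 5 largest control clusters held 8, 7, 7, 7 and 6 regions, the first on chromosome 20 (14625961 to 14682652). They contained no positive region.

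Overlaps within a list were rare. In the positive list 6 regions overlapped the next one, 5 of them on chromosome 4, and 1 region did so in the control list. No region was listed more than once.

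The authors' scores had a step at 109 to 111 in the Yap1 list. The sources used here do not say what the whole-number score measures, and both lists started at 57. In the control list the scores thinned out from 57 upwards without such a step, with a median of 78. In the positive list the median was 96, and 697 regions (9.23%, 8.60 to 9.90) had a score of 109, 110 or 111. The 3 values just below, 106 to 108, held 127 positive regions, and the 3 values just above, 112 to 114, held 186. Of these 186, 97 had a score of 112, against 42 at 113 and 47 at 114. The step was taken as the 3 successive scores that held the most positive regions, so its bounds leave out the raised count at 112. In the control list the same 3 ranges held 161 regions at 109 to 111, 156 below and 134 above. The Taz positive list, made against the same Dam-GFP sample, held 187 at 109 to 111, 216 below and 169 above. Its scores started at 66, so the same values need not mark the same point in the Yap1 and Taz lists. These counts therefore do not show whether the Taz list has a step of its own.

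The regions of the step were short and scattered. Their median length was 557 bp (528 to 583), against 933 bp (792 to 1016) for scores of 106 to 108 and 834 bp (771 to 1009) for scores of 112 to 114. The range of 112 to 114 includes the raised count at 112. Only 16 of the 697 (2.30%) were 2000 bp or longer, against 15 of 127 just below (11.8%). They occurred on all 25 chromosomes, where they made up 5.80% (chromosome 4) to 15.4% (chromosome 12) of the positive regions. A positive neighbour within 10 kb was present for 24.7% (21.6 to 28.0) of them and for 34.5% (33.4 to 35.6) of the other positive regions. The step was noticed in the distribution and then described on the same regions. Without these scores the median length of the positive list was 1020 bp, against 906 bp in the control list.

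**Figure D3:**
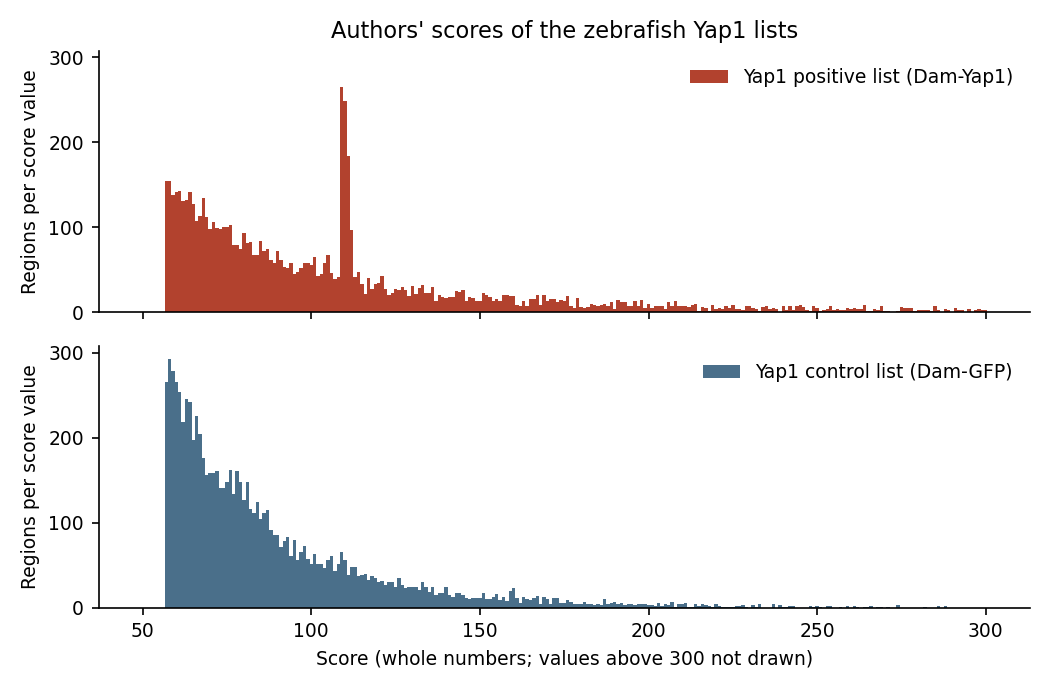
Number of regions (vertical axis) at each whole-number score given by the authors (horizontal axis), for the Yap1 positive list above and its Dam-GFP control list below. The positive list rises to 265, 248 and 184 regions at scores of 109, 110 and 111, where the control list has 66, 56 and 39.

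Length and score were only loosely related. Across all positive regions Spearman's rho of length and score was 0.10, and across control regions it was 0.17. Regions are not independent replicates, so no p-value is given. From the lowest to the highest of 4 equal score classes the median lengths of positive regions were 925, 964, 783.5 and 1174 bp, the third class being the one that holds the step. Regions under 300 bp made up 6.78% (5.73 to 7.999) of the lowest class and 2.17% (1.60 to 2.93) of the highest. The share with a positive neighbour within 10 kb was 29.2%, 31.2%, 32.0% and 41.9% over the same classes. In the control list that share was 31.7%, 33.5%, 35.9% and 49.4%. The top 10% of positive regions by score held 25.9% of the summed score.

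The 10 highest scores lay on many chromosomes, and none belonged to the 10 longest regions. The 194 positive regions that scored above 328, the control maximum, were longer than most, with a median of 1468 bp (1311 to 1680). The median of the whole positive list was 957 bp. Scores of both the Yap1 and the Taz positive list reached exactly 1000, and whether the scale stops there is not known. In the Yap1 list the score of 1000 belonged to a region of 1559 bp on chromosome 23 (13990412 to 13991970), which ended 4 bp before the next positive region. Regions of 2787 bp on chromosome 10 (13596329 to 13599115, score 967) and 914 bp on chromosome 11 (3841938 to 3842851, score 850) came next. A region of 3535 bp on chromosome 16 (32793993 to 32797527) scored 830, and one of 3446 bp on chromosome 18 (17869055 to 17872500) scored 829. The chromosome 16 region had a control region 6.41 kb away, the closest among the 9 of these 10 that lay on chromosomes. The sixth, on chromosome 13 (11911770 to 11913876, score 817), stood alone, with 605 kb to the positive region before it and 253 kb to the one after. A region of 928 bp on chrUn_KN150164v1 (1404 to 2331) scored 799. Scores of 795 were given to 1231 bp of chromosome 2 (38073271 to 38074501) and to 642 bp of chromosome 4 (13256965 to 13257606), the shortest of the 10. The last of them, on chromosome 3 (24922635 to 24924753), measured 2119 bp and scored 786.

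The longest regions had scores on both sides of the list's median of 96. After the 16598 bp region on chromosome 17 (23347026 to 23363623) came 3 regions on chromosome 4 of 12683 bp (65279693 to 65292375, score 62), 11225 bp (59571985 to 59583209, score 74) and 9946 bp (37812426 to 37822371, score 157). The fifth measured 8471 bp on chromosome 20 (152855 to 161325, score 123). The seventh, 7627 bp on chromosome 14 (31058869 to 31066495), had the highest score of the 10 at 291 and lay 182 kb and 122 kb from its positive neighbours. Others measured 7616 bp on chrUn_KN150631v1 (14593 to 22208, score 90), 7304 bp on chromosome 4 (42081906 to 42089209, score 63) and 6681 bp on chromosome 5 (67669564 to 67676244, score 103). In the control list the longest region was 7129 bp on chromosome 13 (6860076 to 6867204, score 170). The next longest control regions measured 6772 bp on chrUn_KN149694v1 (139184 to 145955), 6425 bp on chromosome 6 (29647603 to 29654027), 6280 bp on chromosome 18 (29363748 to 29370027) and 6160 bp on chromosome 16 (20537115 to 20543274). Scores in the control list peaked at 328 on chromosome 16 (15466437 to 15470546) and 312 on chromosome 5 (47957723 to 47960328). A score of 305 was given on chromosome 13 (22720066 to 22725077) and on chromosome 22 (26674456 to 26679443), and 288 on chromosome 1 (25292455 to 25294054).

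Per megabase, chromosome 4 stood apart in the Yap1 list and the other chromosomes lay close together. Densities were counted over 1340 Mb, the sum of the last region ends of the 25 chromosomes over the 4 zebrafish lists, which is a lower bound of their true length. Positive regions averaged 5.42 ± 0.81 per Mb (SD over 25 chromosomes) and control regions 6.28 ± 0.59 per Mb. Chromosome 4 carried 8.33 positive regions per Mb (7.69 to 8.998), against 5.40 control regions per Mb (4.89 to 5.95). The next densest in the positive list were chromosome 22 at 6.40 per Mb (5.63 to 7.24) and chromosome 23 at 6.18 (5.49 to 6.94). The sparsest were chromosome 6 at 4.37 (3.85 to 4.93) and chromosome 11 at 4.39 (3.80 to 5.05). Without chromosome 4 the positive densities averaged 5.30 ± 0.55 per Mb. Positive and control densities did not move together, with a Spearman's rho of -0.03 over 25 chromosomes and 0.08 without chromosome 4. The excess on chromosome 4 was not confined to Yap1. In the Taz positive list the mean per 1 Mb bin was 6.01 over all bins and 5.83 without chromosome 4. In the Taz control list it was 7.9985 and 8.11. The Yap1 means moved the same way, from 5.41 to 5.24 and from 6.17 to 6.22. Densities and share ratios per chromosome were not computed for Taz.

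Because the Yap1 control list was the longer, each chromosome's share of the Yap1 positive list was divided by its share of that control list. A chromosome was called where its share was at least 25% higher in either list than in the other, and 1 was called in each direction, 4% of the 25. Chromosome 4 was higher in the positive list, at 1.76-fold (1.55 to 1.99). Chromosome 17 followed at 1.24-fold (1.05 to 1.46) and chromosome 13 at 1.23-fold (1.05 to 1.45), both just short of the limit. Chromosome 6 was lower, at 0.779 (0.663 to 0.913), followed by chromosome 1 at 0.808 (0.691 to 0.943) and chromosome 10 at 0.810 (0.676 to 0.969). Of the 25 ratios, 8 were above 1. The interval lay wholly above 1 for 5 chromosomes and wholly below 1 for 5. These intervals treat regions as independently placed. In bins of 1 Mb, however, the variance was 3.30 times the mean for positive and 3.03 times for control regions. The intervals are therefore too narrow, and the number clear of 1 under wider ones was not computed. By covered bases the chromosome 4 ratio was 1.87, and with regions within 10 kb joined it was 1.66. In these settings chromosome 24, not chromosome 6, was the lowest, at 0.704 and 0.796. The positive regions of chromosome 4 had a median gap of 42.9 kb, the shortest of the 25. Their median score was 88, the lowest together with chromosome 22. Chromosome 18 had the highest median score, 109, a value inside the step.

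**Figure D4:**
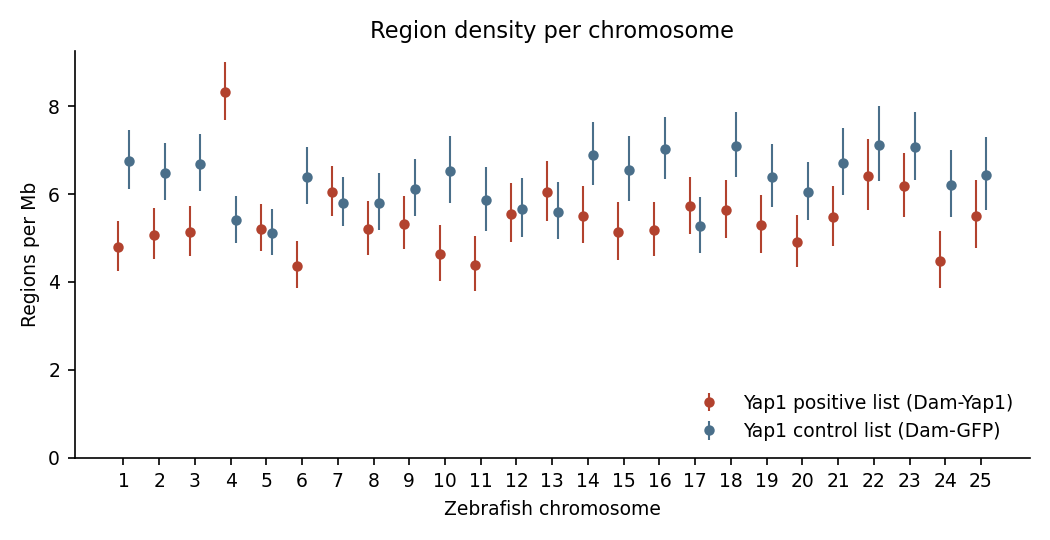
Regions per Mb (vertical axis) on each of the 25 zebrafish chromosomes (horizontal axis), for the Yap1 positive list and its Dam-GFP control list. Points are densities and bars are exact 95% Poisson intervals. Chromosome 4 reaches 8.33 positive regions per Mb, whereas the other chromosomes lie between 4.37 and 6.40.

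Along the chromosomes, Yap1 regions were most frequent at the middle and control regions before it. Each chromosome was divided into 10 equal parts from its start, in the direction of the assembly's coordinates. Parts 5 and 6 held 24.9% (23.9 to 25.9) of positive and 19.8% (19.0 to 20.7) of control regions. Parts 3 and 4 held 17.7% (16.8 to 18.6) of positive and 25.6% (24.7 to 26.6) of control regions. In parts 5 and 6 the positive share exceeded the control share on 20 of 25 chromosomes, with means of 24.7% ± 5.19 and 19.8% ± 5.48 (SD over chromosomes). In parts 3 and 4 it did so on 8 of 25, with means of 17.6% ± 4.96 and 25.7% ± 9.65. These parts were paired after the values had been seen. Without chromosome 4 the positive list held 12.5% in part 5 and 12.6% in part 6, and the control list 10.7% and 9.30%. Over all 25 chromosomes the lowest positive shares were 7.79% in part 2 and 7.85% in part 3. The end parts held more than these, with 10.8% of positive regions in part 1 and 10.3% in part 10. The control list held 9.71% and 9.11% there.

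**Figure D5:**
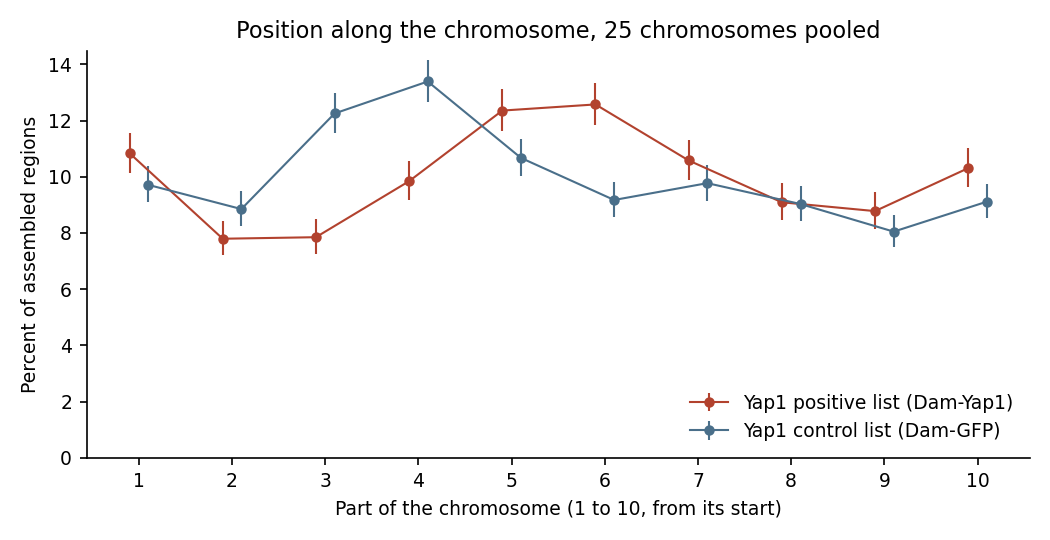
Percent of the assembled regions of a list (vertical axis) in parts 1 to 10 of the chromosome, counted from its start (horizontal axis), pooled over 25 chromosomes, for the Yap1 positive list and its Dam-GFP control list. Bars are Wilson 95% intervals. The positive list peaks at 12.6% in part 6 and the control list at 13.4% in part 4.

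In bins of 5 Mb the lists diverged at many places. Of 282 bins, 275 held at least 20 regions over both lists and were compared by the ratio of shares. In 37 bins (13.5%) the positive share was past 2-fold higher, and in 37 (13.5%) past 2-fold lower. The bins just short of the limit had ratios of 1.97 and 0.503. The higher bins lay on 17 chromosomes, and 8 of them were on chromosome 4, which had 15 of the 275 compared bins. The lower bins lay on 24 chromosomes. These included chromosome 4 from 25000001 to 30000000, with 16 positive and 55 control regions. The highest ratio was 4.90 (2.43 to 10.9), on chromosome 4 from 15000001 to 20000000, with 43 positive and 10 control regions. Chromosome 14 from 35000001 to 40000000 followed at 4.81 (2.29 to 11.3), with 38 and 9 regions. Chromosome 7 had adjoining bins above the limit from 25000001 to 40000000, with 48, 43 and 60 positive against 18, 18 and 18 control regions. The lowest ratio was 0.135 (0.0595 to 0.270), on chromosome 14 from 10000001 to 15000000, with 9 positive and 76 control regions. Chromosome 20 from 10000001 to 15000000 had 13 and 82 regions, a ratio of 0.181 (0.0923 to 0.326). Chromosome 18 had adjoining bins below the limit from 25000001 to 35000000, with 15 and 21 positive against 71 and 99 control regions. Counts were uneven within each list as well. In bins of 1 Mb the variance was 3.30 times the mean for positive and 3.03 times for control regions. Without chromosome 4 the values were 3.13 and 3.01. Independent counts with the same mean in every bin would give a value of 1. The shorter last bin of each chromosome was counted as a whole bin.

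The densest megabases of the control list held few Yap1 regions, whereas those of the Yap1 list held 2 to 10 control regions, on both sides of the mean of 6.17 control regions in a 1 Mb bin. For Yap1 they were on chromosome 4 (59000001 to 60000000, 29 positive and 2 control regions), chromosome 7 (35000001 to 36000000, 28 and 5) and chromosome 7 again (73000001 to 74000000, 26 and 7). With 24 positive regions each, chromosome 15 (27000001 to 28000000), chromosome 18 (20000001 to 21000000) and chromosome 22 (2000001 to 3000000) had 6, 10 and 9 control regions. The median scores of these 6 bins ranged from 74.5 on chromosome 22 to 151 on chromosome 7 (35000001 to 36000000). For the control list the densest megabase was on chromosome 18 (32000001 to 33000000), with 0 positive and 38 control regions. Megabases on chromosome 16 (18000001 to 19000000) and chromosome 4 (26000001 to 27000000) held 2 and 1 positive regions beside 30 control regions each. Those with 27 control regions were on chromosome 14 (13000001 to 14000000), chromosome 18 (28000001 to 29000000) and chromosome 21 (33000001 to 34000000), with 0, 0 and 1 positive regions. Over all 1353 bins of 1 Mb the counts of both lists had a Spearman's rho of -0.08. A total of 57 bins held no positive region and 30 held no control region.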

How the data were processed

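Genomic regions were measured by iDamID-seq in zebrafish Dam-Yap1 and Dam-GFP embryos, 1 sample per group. Per the labels' protocols, unmethylated GATC sites were cut with DpnII and methylated ones with DpnI, and adapter-ligated fragments went through 25 PCR cycles and Illumina sequencing. PCR favours some fragments, and the lists carry no molecule counts. cutadapt, Bowtie2, SAMtools and bedtools were used, per the submitters' processing notes, which name GRCz10. The region caller was not given in the sources used here. A score in the deposited lists is a whole number made by the authors and served to describe, rank or filter regions within a list. Scores of different lists were also set side by side. Since what the score measures is not known, those comparisons are of the numbers only. The positive list was paired with the control list of the same factor by name. Starts were converted to 1-based positions. Lengths, gaps, clusters (at most 10 kb apart), shares per chromosome and bins of 1 and 5 Mb were computed with Python 3.11.15, pandas 2.3.3, numpy 2.4.6, scipy 1.17.1 and matplotlib 3.10.9. Shares carry Wilson 95% intervals, densities exact Poisson intervals, ratios exact conditional intervals and medians order-statistic intervals. The functions were tested on simulated lists. Regions and bins were named by rank: the 10 highest-scored and 10 longest positive regions, 5 of each in the control list, the 5 largest clusters and densest megabases (ties included), the 3 longest gaps, and the 3 chromosomes highest and lowest in ratio. Bins of 5 Mb were chosen by their ratio or as adjoining bins after the values were seen. The regions, limits and lists were chosen with earlier results of these data known. Motif and gene comparisons were planned only for a genome of the same build and are not analysed here.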

Additional observations from a re-analysis of the deposited data

Results flagged for a closer look

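Yap1 and Taz were each set against the same Dam-GFP sample, and the positive-minus-control difference had opposite signs for the share of gaps of at most 10 kb and for the mean region length. These differences between the factors were not tested, since each was 1 sample. For Yap1 the share of gaps of at most 10 kb differed by -1.18 percentage points (19.9% positive, 21.1% control), with an interval of -2.44 to 0.0925 that includes 0, so its direction is not settled. For Taz it differed by 13.5 percentage points (25.97% positive, 12.5% control). The mean region length differed by -25.99 bp for Yap1 (1178 bp positive, 1204 bp control) and by 256 bp for Taz (1238 bp positive, 982 bp control). No interval was computed for these means, so the direction for Yap1 is not settled here either. Scores started at 57 in the Yap1 lists and at 66 in the Taz lists. The median length was the higher in the positive list for both factors, at 957 bp against 907.5 bp for Yap1 and 982 bp against 804 bp for Taz.

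The Yap1 positive list held 1 region on the mitochondrial genome (5363 to 6574, 1212 bp, score 293), where its control list held 0. It lies outside the comparisons of assembled chromosomes.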

How the results depend on the processing

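No paired analysis was possible because each group was 1 sample and the lists carry no replicate numbers. Of 24 alternatives, 8 kept the sign with a value inside the counting interval, or a count within 1.5 times. Another 9 moved outside that range without a reversed sign, and 7 changed sign. The 9 include the median length difference without recurring lengths, which was 0 bp and so had no sign. The median length difference of 49.5 bp became 95 bp with regions of at least 300 bp and -51.0 bp in the higher-scored part of each list. It was 113.5 bp without the scores of the step, 109 to 111, and 0 bp without recurring lengths; these last alternatives were chosen after seeing the data. The median gap difference of -1.86 kb became 9.78 kb in the higher-scored part, 2.22 kb without chromosome 4, 3.82 kb without the first and last 1 Mb of chromosomes and 3.12 kb without the step scores. Every one of these 5 intervals spanned 0. The difference in gaps of at most 10 kb, -1.18 percentage points, became 0.678 in the higher-scored part, -3.63 (-4.78 to -2.48) at a limit of 5 kb and 0.710 at 20 kb. It was -1.76 (-3.06 to -0.460) without chromosome 4 and -1.85 (-3.15 to -0.543) without the first and last 1 Mb, intervals below 0, whereas the interval over all assembled chromosomes, -2.44 to 0.0925, included it. Chromosomes called numbered 2, but 5 in the higher-scored part, 8 by covered bases and 5 without the step scores. With regions joined within 10 kb they numbered 2 again, but the lower one was chromosome 24 (0.796) and chromosome 6 was not called. Chromosome 24 was also the lowest by covered bases, at 0.704. Chromosome 4 stayed highest under all 4 alternatives, from 1.52 to 1.87. Bins past 2-fold numbered 74 at 5 Mb, 197 at 2 Mb and 34 at 10 Mb, where the number of bins tested was 275, 421 and 145. With regions joined within 10 kb, 24 of the 37 higher and 25 of the 37 lower bins were called again. The cause of these changes was not tested. The motif and gene-start alternatives were not run. Unknown read depth limits what a missing region can mean.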
